A study of Drosophila melanogaster with 53 samples.

Results

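Cell cycle regulators were followed in *Drosophila* S2 cells after 1 h of 20-hydroxyecdysone (20E), the steroid hormone that drives molting and metamorphosis. The genes were chosen by name, for their roles in the cell cycle, with earlier results of these data known. They are the cyclin genes *CycA*, *CycB*, *CycB3*, *CycD* and *CycE*, the phosphatase gene *stg* (string), the inhibitor gene *dap* (dacapo), and *fzr*, *Rbf* and *mus209*. All 10 were found among the 15598 genes of the RNA-seq table, 9 by symbol and *fzr* by its identifier, because the table lists it under its older symbol *rap*. Their 24 transcripts were taken from the 28704 of the transcript table.

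The study compared S2 cells given 0.3 μM 20E for 1 h with control cells given the solvent, DMSO. Polyadenylated RNA was sequenced, and the cells of both groups received no dsRNA and were grown in a medium without ecdysone. S2 is a cell line of blood cell character derived from embryos, so each group stands for 1 dividing line and not for a tissue. The labels list 2 libraries in each group, but the tables hold 1 FPKM (fragments per kilobase of transcript, scaled to the size of the library) for each condition. No spread between replicates could be computed. For genes, the authors listed lower and upper bounds beside every FPKM, at a level that is not named. These bounds, given in brackets after a value, stand in for its error.

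Cell division is driven by cyclin-dependent kinases, which are active only when bound to a cyclin. Cyclin D and cyclin E act before and at the start of DNA synthesis, while cyclins A, B and B3 act up to and through mitosis. The kinase of mitosis, Cdk1, is held inactive by phosphorylation until the phosphatase String, a Cdc25, removes the phosphate. Mitotic cyclins are then destroyed after ubiquitination by the anaphase-promoting complex. In flies, ecdysone sets when many tissues stop or resume division, and in the related Kc cell line a long exposure to the hormone ends proliferation before mitosis. The treatment of 1 h is shorter than a division cycle of these cells.

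The labels were checked against marker genes. The 6 genes used to check the hormone response (*Eip75B*, *Eip74EF*, *Hr46*, *Hr4*, *vri* and *br*) were all higher in 20E with bounds apart, by 1.44 to 3.41 on the log2(FPKM + 1) scale. They were picked from earlier results of these data and are no independent evidence. Of 9 blood cell markers, 7 had a mean of at least 1 FPKM, among them *srp* with 106 FPKM in DMSO-treated cells, while *Hml* and *nimC1* were under 1 FPKM in both conditions. The markers summed to 430 FPKM without and 427 FPKM with 20E, and *eater* alone had bounds apart, at 8.20 and 13.8 FPKM. Of 11 markers of neurons, muscle, germ line and fat body, 1 (*elav*) reached 1 FPKM, and the 11 together summed to 4.90 FPKM without and 5.26 FPKM with 20E. *elav* shares its locus with *arg* and CG4293, and was at 3.63 FPKM in DMSO (2.05 to 5.22) and 3.66 FPKM in 20E (2.04 to 5.28). Depth could be read in part from the low FPKM values, which for single-transcript genes lay mostly on whole steps, with 89.4% of 386 values in DMSO and 78.8% of 345 values in 20E within 0.15 of a whole number. The step sizes were fitted to these values, and 200 bases were taken off each transcript length because this raised the shares, so the shares are a description only. By the fitted steps, 1 FPKM in the 20E column stood for about 1.45 times the fragments that it did in the other.

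All 10 genes were expressed in S2 cells and passed the limit of 1 FPKM on the mean of both columns. Positions below are those of the table with each start raised by 1 base, and its genome build is not named in it. Of 8719 genes alone in their locus and found in the BDGP6 annotation, 991 had the same start and end there. The positions should therefore not be read as BDGP6 positions. The levels, which are per length and can be set side by side, spanned from 9.51 FPKM for *fzr* to 395 FPKM for *mus209* in DMSO-treated cells. *mus209* was followed by *CycB*, *CycA*, *stg*, *dap*, *CycD*, *Rbf*, *CycE*, *CycB3* and *fzr*, and this order was the same in 20E-treated cells. Of the neighbours in this order, *dap* and *CycD*, *CycD* and *Rbf*, *Rbf* and *CycE*, and *CycE* and *CycB3* had overlapping bounds in both conditions. The bounds do not settle the order of these pairs, and overlap of bounds is no test of a difference. *CycA* and *stg* had overlapping bounds in DMSO and bounds apart in 20E. The upper bound lay 21.3% to 24.2% above the FPKM in DMSO and 21.2% to 24.6% above it in 20E.

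**Figure D1:**
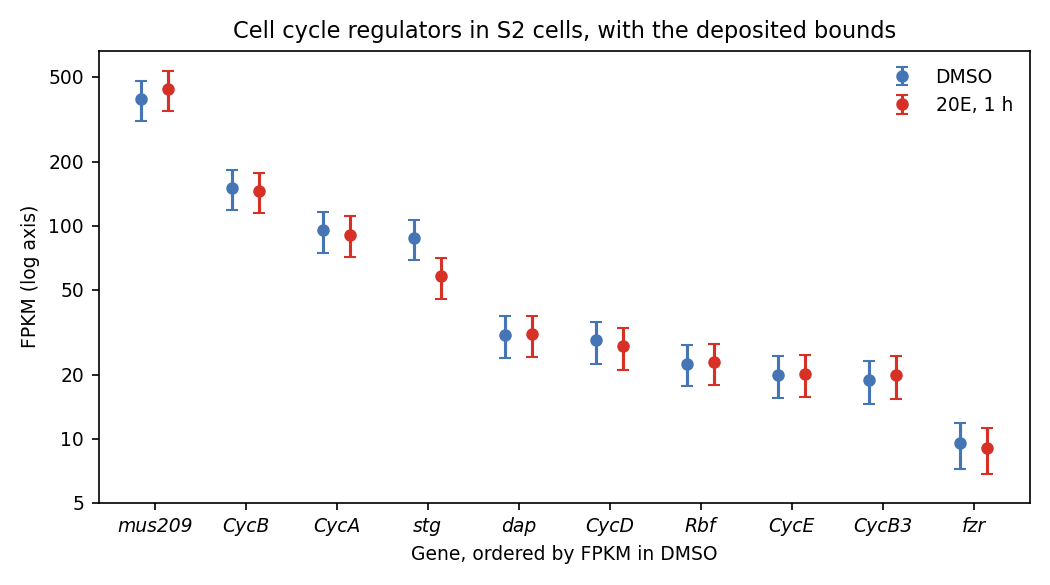
FPKM (log axis) of the 10 cell cycle genes in DMSO-treated (blue) and 20E-treated (red) S2 cells. Points are the 1 deposited value per condition and bars the authors' lower and upper bounds, which overlap between conditions for every gene and least for *stg*, at 87.5 FPKM without and 57.9 FPKM with 20E.

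Of the 10 genes, *stg* was the single one past a fold of 1.5, and it was lower after 20E. Among all 7617 genes with a mean of at least 1 FPKM, 0.446% were lower and 1.46% were higher past this fold (1.9% either way). None of the 10 genes had bounds apart between the conditions, against 0.958% of all genes (0.814% higher and 0.144% lower), and none was past a fold of 2, against 0.63%. At a lower limit of 0.32 either way on the log2(FPKM + 1) scale, *stg* was again the 1 gene past it, against 6.18% of all genes. The other 9 genes differed by -6.27% to 11.4% of their level in DMSO, 8 of them by less than 10%. Changes this small were common, as the 25th and 75th percentiles of the 7617 genes were -0.081 and 0.081 on the log2(FPKM + 1) scale. Of the 10 genes, 5 were higher and 5 were lower in 20E. Their median change was -0.021 on the log2(FPKM + 1) scale, beside 0.0022 for the 7617 genes. Without *stg* the median of the other 9 was 0.0087. Leaving out any other of the 5 lower genes in place of *stg* gives the same value, so the sign of the median rests on each of them and not on *stg* alone.

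**Figure D2:**
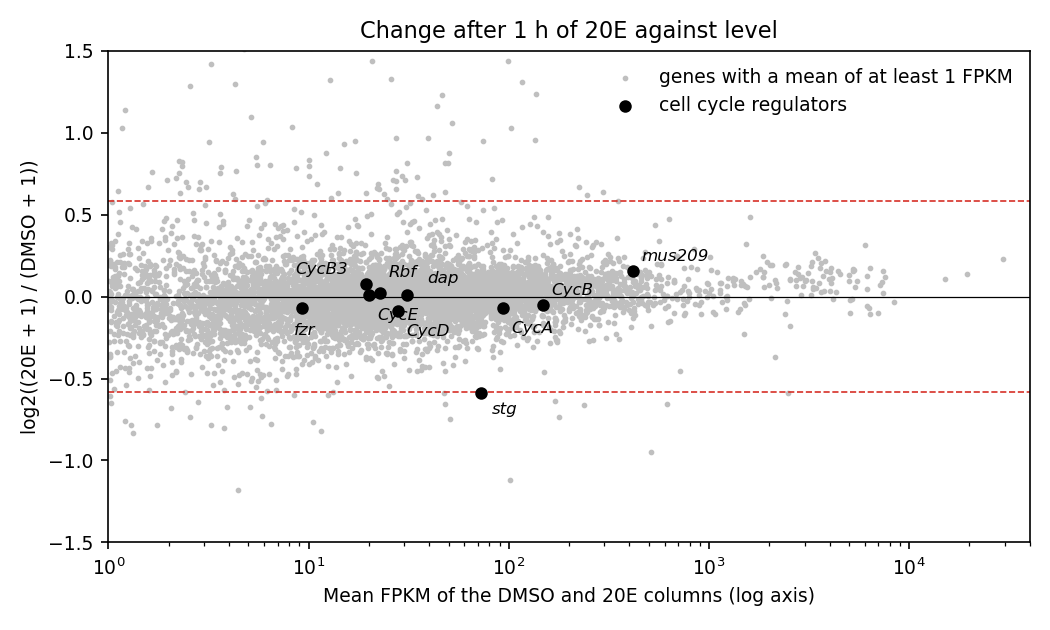
Change after 1 h of 20E on the log2(FPKM + 1) scale against the mean FPKM of both columns (log axis), for genes with a mean of at least 1 FPKM (grey) and the 10 cell cycle genes (black). Dashed lines mark a fold of 1.5 either way, and 29 genes lie outside the plotted range of changes. *stg* lies at -0.59, and the other cell cycle genes lie between -0.09 and 0.16.

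*stg* (FBgn0003525, on chromosome arm 3R from 25077540 to 25081502) encodes the String phosphatase, whose transcription sets the time of mitosis in the fly embryo. Its level was 87.5 FPKM in DMSO-treated cells, with bounds of 68.8 and 106. In 20E-treated cells it was 57.9 FPKM, with bounds of 45.5 and 70.2. The upper bound in 20E thus exceeded the lower bound in DMSO by 1.41 FPKM, and the bounds overlap by this margin. The difference of 20E minus DMSO was -29.6 FPKM, or -33.9%, a change of -0.59 on the log2(FPKM + 1) scale, and the bounds allow from -1.20 to 0.03. Its ratio of FPKM + 1 was 0.665, just past the limit of 0.667. From the lowest upwards, this change had rank 33 among these 7617 genes. Among the 5903 genes whose mean was at least 10 FPKM it had rank 13. For 95% of the latter, the change lay between -0.27 and 0.33.

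The table lists 1 transcript for *stg* (FBtr0085397, with 2 exons and 2589 bases in BDGP6) and no other gene in its locus. By the whole steps above, its values correspond by extrapolation to about 17348 fragments in DMSO and 16658 in 20E. If these estimates hold, the counting error alone would be 0.759% in DMSO, where the authors' upper bound lies 21.3% above the value. In bulk RNA, less *stg* RNA in each cell and fewer cells that carry it cannot be told apart.

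The mitotic cyclin genes, whose products activate Cdk1, differed in level. *CycB* (FBgn0000405, 2R from 18691026 to 18694490) encodes cyclin B and was at 151 FPKM in DMSO, with bounds of 118 and 183. In 20E it was at 145 FPKM, with bounds of 114 and 176. *CycA* (FBgn0000404, 3L from 11819819 to 11826678) encodes cyclin A, the cyclin that fly cells need to enter mitosis. It was at 95.4 FPKM without 20E (74.8 to 116) and 90.9 FPKM with it (71.2 to 111). *CycA* shares its locus with CG7264, which was at 0.804 FPKM without and 1.06 FPKM with 20E. *CycB3* (FBgn0015625, 3R from 20694075 to 20696617) encodes a cyclin that promotes anaphase. Its value was the lowest of the cyclin genes among the 10 regulators, though within the bounds of *CycE*. It was at 18.8 FPKM without 20E (14.5 to 23.1) and 19.9 FPKM with it (15.4 to 24.4). The changes of these cyclin genes were -0.05, -0.07 and 0.07 on the log2(FPKM + 1) scale, in this order.

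*CycB3* was at 0.125 times the level of *CycB* in DMSO-treated and 0.137 times in 20E-treated cells. *CycA* was at 0.634 and 0.626 times the level of *CycB*. Such ratios do not depend on how the columns are scaled to each other, and in both cases the ranges from the bounds overlap. In 20E-treated cells the lower bound of *CycA*, 71.2 FPKM, was above the upper bound of *stg*, 70.2 FPKM. In DMSO-treated cells the bounds of this pair overlapped.

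*fzr* (FBgn0262699, X from 4561315 to 4573619) encodes Fizzy-related, the Cdh1-type activator that directs the anaphase-promoting complex against mitotic cyclins in G1 and in cells leaving the mitotic cycle. It had the lowest level of the 10 genes, 9.51 FPKM without 20E (7.20 to 11.8) and 9.02 FPKM with it (6.81 to 11.2). *dap* (FBgn0010316, 2R from 5599829 to 5603607) encodes Dacapo, the inhibitor of the cyclin E kinase that brings the last division of many embryonic cells to an end. It was at 30.8 FPKM without 20E (24.0 to 37.6) and 31.0 FPKM with it (24.2 to 37.9), the smallest change of the 10 genes. Neither of these genes, whose products hold back division, was past a fold of 1.5 in either direction, a count near the background of 1.9% of all genes.

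The genes of the G1 cyclins differed by less than 10% between the conditions. *CycD* (FBgn0010315, X from 15800855 to 15803709) encodes the partner of Cdk4, which promotes growth as well as division in flies. It was at 29.0 FPKM without 20E (22.5 to 35.5) and 27.2 FPKM with it (21.1 to 33.2). *CycE* (FBgn0010382, 2L from 15727762 to 15748155) encodes the cyclin that starts DNA synthesis with Cdk2. It was at 20.0 FPKM without 20E (15.6 to 24.4) and 20.2 FPKM with it (15.7 to 24.6). The ratio of the inhibitor *dap* to *CycE* was 1.54 in both conditions. That of *CycD* to *CycE* was 1.45 in DMSO and 1.35 in 20E, with overlapping ranges from the bounds (0.921 to 2.28 and 0.856 to 2.11).

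*Rbf* (FBgn0015799, X from 691121 to 695490) encodes the fly retinoblastoma protein, which binds E2F and keeps S phase genes off until cyclin kinases phosphorylate it. It was at 22.5 FPKM without 20E (17.6 to 27.4) and 22.8 FPKM with it (17.8 to 27.8). *mus209* (FBgn0005655, 2R from 16149259 to 16150362) encodes PCNA, the sliding clamp of the replication fork and a classic E2F target. It was at 395 FPKM without 20E (311 to 479) and 440 FPKM with it (347 to 534). It was the most abundant of the 10 genes, with rank 257 among all genes in DMSO and rank 235 in 20E. Its difference of 45.0 FPKM, or 11.4%, was the largest upward one among them, and the bounds of the conditions overlap.

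The transcript table splits each gene's FPKM among its listed transcripts, without bounds. *stg*, *dap*, *Rbf* and *CycB3* have 1 listed transcript each, and the other 6 genes have several. Of the 24 transcripts, 18 had a mean of at least 1 FPKM, of which 1 was higher and 2 were lower past a fold of 1.5. Among all 12539 transcripts with such a mean, 7.36% were higher and 5.78% were lower past this fold (13.1% either way), so that the counts among the members were near the background. The transcript that was higher belongs to *mus209*. Those that were lower are the *stg* transcript and the minor *CycB* transcript FBtr0071914, at 2.32 FPKM without and 0.801 FPKM with 20E.

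The split of *mus209* differed most between the columns. Its transcript FBtr0086307 went from 51.8 FPKM in DMSO to 161 FPKM in 20E, and FBtr0086308 from 343 FPKM to 279 FPKM. The share of FBtr0086307 in the gene was 13.1% in DMSO and 36.6% in 20E. In the BDGP6 annotation both have 2 exons and the same 780 coding bases, and FBtr0086307 holds 73 more bases at its 5′ end, with 997 bases in common. Reads of the common bases cannot by themselves tell the transcripts apart, and no bounds are listed for the split. The columns of the authors' own test of each transcript were not used. Among 1261 transcripts with a mean of at least 50 FPKM in genes with several transcripts, 3.41% were higher past a fold of 2, as FBtr0086307 was. This limit of 50 FPKM was chosen after the values were seen.

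*CycE* is transcribed from several starts, from which maternal and zygotic forms of its RNA are known. Its transcripts fell into 3 groups by their start in BDGP6. The 2 transcripts from the most upstream start (mainly FBtr0080774) held 50.3% of the gene in DMSO and 48.6% in 20E. The 3 transcripts that start 1540 bases further downstream (mainly FBtr0080775) held 49.3% and 51.3%. FBtr0080777, which starts 16366 bases downstream of the first start and has 1806 coding bases in place of 2127, held 0.372% in DMSO and 0.0946% in 20E. In both conditions the upstream pair of starts thus held nearly equal shares, for which no bounds are listed. FBtr0305561 was listed at 0 in DMSO and at 0.431 FPKM in 20E.

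*CycA* was divided between FBtr0076075, with 64.6% of the gene in DMSO and 69.2% in 20E, and FBtr0304650. FBtr0304650 was at 33.8 FPKM without and 28.0 FPKM with 20E. In BDGP6 it extends 364 bases further at the 3′ end and lacks 3 coding bases. Another listed transcript, FBtr0076076, was at 0 in both conditions and is not matched in BDGP6. *CycD* was carried mainly by FBtr0300391, at 21.8 FPKM without and 21.9 FPKM with 20E, and by FBtr0300393, at 6.94 and 5.03 FPKM, which has the same 1431 coding bases and 308 more bases outside them. *CycB* was carried by FBtr0071911, with 91.3% of the gene in DMSO and 92.5% in 20E, and *fzr* by FBtr0070686, with 99.2% and 99.6%.

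**Figure D3:**
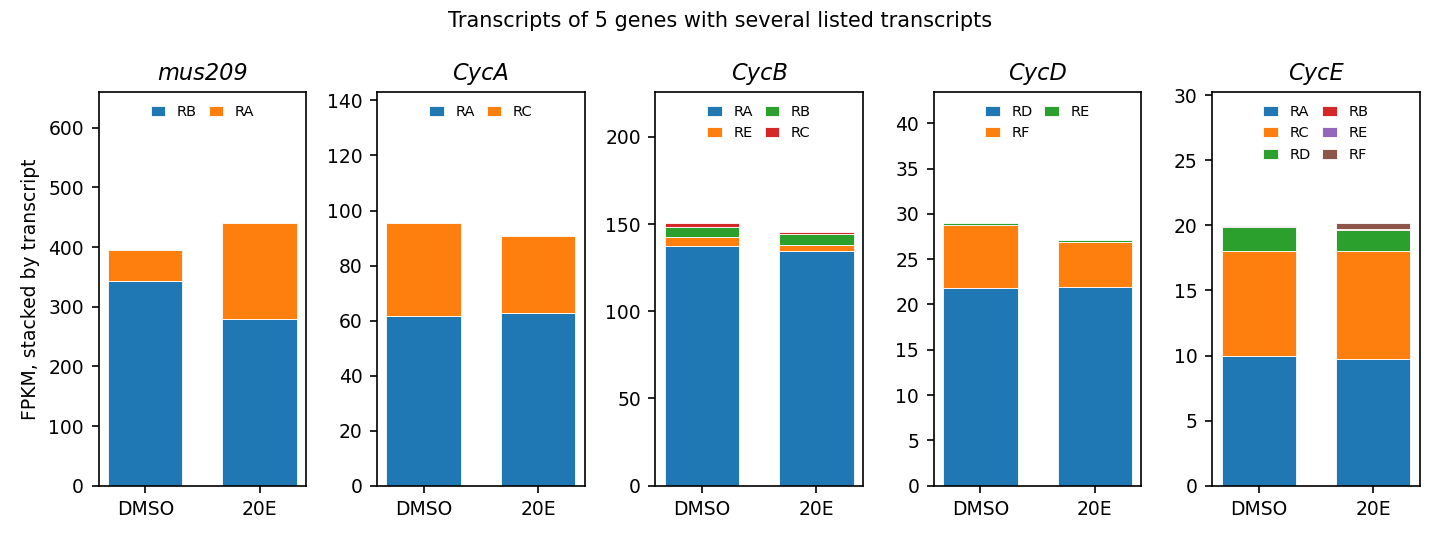
FPKM of the listed transcripts of *mus209*, *CycA*, *CycB*, *CycD* and *CycE*, stacked, in DMSO-treated and 20E-treated cells, each gene on its own linear axis from 0. Transcripts carry the suffix of their BDGP6 name, and are drawn without errors. The RA part of *mus209* (FBtr0086307) is 51.8 FPKM in DMSO and 161 FPKM in 20E, while in the other genes the share of the main transcript differs by at most 5.39 points (*CycD*).

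The other genes of the cell cycle were taken from lists drawn up by name. They hold 105 genes, all with a mean of at least 1 FPKM. Of these, 1 was higher and 0 were lower past a fold of 1.5, against 1.46% and 0.446% of all genes, and 0 had bounds apart, against 0.958% of all genes. With so few genes, these counts are near the background. Their median change was -0.0015 on the log2(FPKM + 1) scale. *stg*, with overlapping bounds, was thus the only gene of the members and of these lists that was lower past the fold. This count, too, is near the background of 0.446% of all genes.

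The gene that was higher past the fold is *cdc2c*, which encodes Cdk2, the partner of cyclin E. It was at 37.5 FPKM without 20E (28.0 to 47.1) and 58.9 FPKM with it (43.9 to 73.8), a change of 0.64 on the log2(FPKM + 1) scale with overlapping bounds. Its locus also holds CG17267, at 10.4 FPKM without and 9.27 FPKM with 20E, and *mir-995*, listed at 0. Most of the difference lay on the *cdc2c* transcript FBtr0083921, at 27.2 FPKM without and 46.8 FPKM with 20E. *cdc2*, the gene of the mitotic kinase Cdk1, was at 89.0 FPKM and 87.8 FPKM. The 6 genes of this list, which also holds *Cdk4* and the inhibitors *wee*, *Myt1* and *rux*, had a median change of 0.06 on the same scale.

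For the 10 genes of E2F and its partners the changes lay between -0.03 and 0.12 on the log2(FPKM + 1) scale, with a median of 0.0017. Neither in this list nor in those for replication licensing and DNA synthesis was a gene past a fold of 1.5, a count near the background of 1.9% of all genes. *E2f*, the activator that *Rbf* binds, was at 107 FPKM without and 114 FPKM with 20E, and *mip40*, of the repressive dREAM complex, at 109 FPKM in both. For the 23 genes of replication licensing the median change was -0.0048, with *geminin*, an inhibitor of relicensing, at 201 and 211 FPKM and the helicase gene *dpa* at 91.8 and 88.3 FPKM. The 16 genes of DNA synthesis had a median change of 0.0084. Among them were *dUTPase*, which keeps uracil out of DNA, at 340 and 377 FPKM, and the ribonucleotide reductase gene *RnrS*, at 250 and 249 FPKM.

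Among 15 genes of mitotic kinases and the spindle checkpoint the median change was -0.0020 on the log2(FPKM + 1) scale, with *polo*, a kinase that acts from mitotic entry to cytokinesis, at 183 FPKM without and 189 FPKM with 20E, and *Bub3* at 131 and 138 FPKM. In this list *pim*, the fly securin, had the lowest change, -0.35, at 41.6 FPKM without 20E (31.8 to 51.4) and 32.5 FPKM with it (24.6 to 40.3). The 14 genes of the anaphase-promoting complex and its regulators had a median change of -0.0053. They included *fzy*, the Cdc20-type activator, at 60.7 FPKM without and 60.9 FPKM with 20E, and *vih*, the ubiquitin-conjugating enzyme of the complex, at 54.2 and 57.2 FPKM. *lmg*, a subunit gene that shares its locus with *Acer* and CG34441, had the highest change of this list, 0.43, at 14.9 FPKM without 20E (6.72 to 23.1) and 20.4 FPKM with it (11.0 to 29.8). The 6 genes of the SCF ligase, which acts on G1 and S phase proteins, had a median of 0.07, with *skpA* at 253 and 249 FPKM and *Roc1a* at 153 and 170 FPKM. No gene of the lists for mitosis and protein destruction was past a fold of 1.5, which is again near the background of 1.9% of all genes.

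The 7 genes of the DNA damage checkpoint had a median change of -0.04 on the log2(FPKM + 1) scale. Its most abundant genes were the kinase genes *grp*, at 54.6 FPKM without and 54.2 FPKM with 20E, and *lok*, at 31.3 and 30.4 FPKM. The 4 cyclins of transcription kinases (*CycC*, *CycH*, *CycK* and *CycT*) had a median change of 0.04. *CycK* was at 97.9 and 102 FPKM and *CycT*, the cyclin of P-TEFb, at 45.7 and 46.0 FPKM. The 4 cyclins with other roles had a median of 0.03, with *CycG* at 242 and 239 FPKM and *koko* at 103 and 98.6 FPKM.

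**Figure D4:**
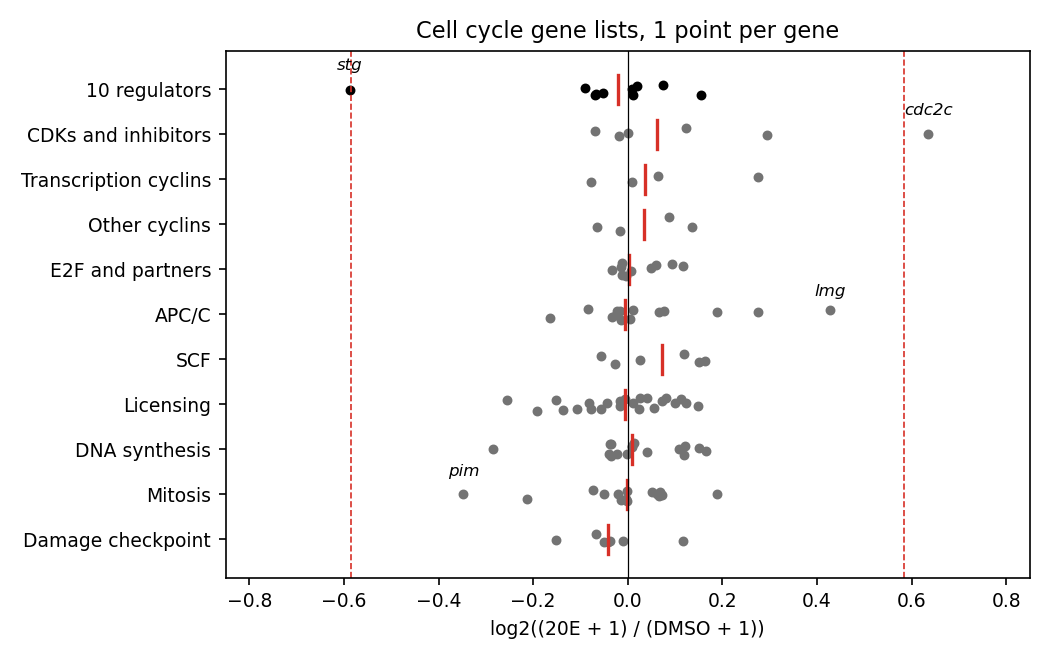
Change after 1 h of 20E on the log2(FPKM + 1) scale for the 10 cell cycle regulators (black) and the genes of 10 further cell cycle lists (grey), with 1 point per gene, a red bar at each median and dashed lines at a fold of 1.5 either way. *stg*, at -0.59, and *cdc2c*, at 0.64, are the points past these lines.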

How the data were processed

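RNA-seq of S2 cells treated with 20E or DMSO was used, and the ChIP-Seq samples were not analysed here. Of genes and of transcripts the authors deposited FPKM, 1 column per condition, and for genes also bounds of unnamed level. The column names are those of Cuffdiff, and how the 2 libraries of a condition entered its column is not given in the sources used here. GEO's processing notes name TopHat2 and the builds dm3 and dm6 without a role. The deposited transcript table also holds the authors' fold change, test statistic, p-value and q-value, none of which was used.

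With no replicate columns, limma could not be run, and no test, p-value, SD or n is given. Changes are log2((20E + 1) / (DMSO + 1)), which understates those of low genes. A gene was past a fold of 1.5 by the ratio of FPKM + 1, and had bounds apart where the bounds of the conditions did not overlap. The background was every gene, or every transcript, with a mean of at least 1 FPKM over both columns. The script was tested on simulated columns. Alternatives were other pseudocounts, folds, limits on FPKM, scaling to the median gene and summed transcripts.

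Members and lists were chosen by name with earlier results of these data known. Named genes are the 10 members, the 2 most abundant genes of each other list, and any list gene past a fold of 1.5 or with bounds apart. Transcripts are named where they hold at least 10% of their gene's FPKM, and those named at a smaller share, like *pim* and *lmg*, were picked after their values were seen. All listed genes were found, most by symbol and some, like *fzr*, by identifier. BDGP6 was used by identifier for transcript structure only. The tools were pandas 2.3.3, NumPy 2.4.6 and Matplotlib 3.10.9 in Python 3.11.15.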

Additional observations from a re-analysis of the deposited data

How the results depend on the processing

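No paired analysis was possible because replicates have no columns of their own in the tables, and for this reason no replicate could be left out in turn. The other settings were a pseudocount of 0.1, none, the 20E column scaled to a median change of 0, and summed transcripts. Each of the 10 genes kept the direction of its change in them, which is no support for it. A pseudocount cannot alter a direction, summed transcripts nearly repeat the gene values, and the scaling factor was only 0.9985. The change of *stg* lay between -0.59 and -0.60 on the log2 scale. The number of genes past a fold of 1.5 remained 1 in the first 3 of these settings and at a lower limit of 0.32 on the log2 scale. The share of all genes past a fold of 1.5, 1.90%, became 1.13% without a filter on low values, 2.93% with no pseudocount and 6.18% at that lower limit. The 3 transcripts of the cell cycle genes past a fold of 1.5 became 1 at a fold of 2, a setting chosen after seeing the data. The median change of the 10 genes, -0.021 on the log2 scale, was 0.0087 without *stg*, again a setting chosen after seeing the data. Depth per library is unknown, and the precision of each value is taken from the authors' bounds.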

Other observations

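Among genes with a mean of at least 10 FPKM, 12 had a lower log2 change than *stg*, and 7 of these 12 had bounds apart, unlike *stg*. Of the 12, 6 belong to the mitochondrial genome, whose share among all such genes was not counted. The ratio of *stg* to *CycB* went from 0.581 in DMSO-treated to 0.399 in 20E-treated cells, with ranges from the authors' bounds of 0.377 to 0.897 and of 0.258 to 0.615. Summed, the 10 cell cycle genes came to 859 FPKM without and 864 FPKM with 20E.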
